A study of Mus musculus with 288 samples.

Results

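Mouse bone marrow-derived macrophages pretreated with one CDK8 inhibitor were set directly against the same cells pretreated with the other. All 96 wells pretreated with dCA and all 96 wells pretreated with BRD-6989 were taken by their labels, which makes 192 wells; the other 96 wells of the study received DMSO alone. The marrow came from C57BL/6 mice labelled 12wks and was grown for 7 days in medium with M-CSF, the growth factor that turns marrow progenitors into macrophages. Pretreatment lasted 24 hours with dCA at 100 nM, BRD-6989 at 1 uM or DMSO, the solvent control. Each well then received no stimulus or 1 of 11 stimuli: LPS, MDP_LPS, Pam3cys, CpG, R848, Poly(I:C), SeV, FLA, Zymosan, TDB or MDP. Wells carry labels of 15, 30, 45, 60, 90, 120, 150 or 180 min, and each combination of pretreatment, stimulus and time was a single well. Polyadenylated RNA was counted gene by gene from 3′ ends as unique molecular identifiers (UMI), and barcoded transcription factor reporters were counted beside it.

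CDK8 is the kinase of a detachable module of Mediator, the large complex that links transcription factors to RNA polymerase II. The module also holds cyclin C, MED12 and MED13, and CDK19 can take the place of CDK8. CDK8 phosphorylates several transcription factors, and macrophages make and answer interferon when they sense microbes. dCA stands for didehydro-cortistatin A, a synthetic relative of the natural product cortistatin A. Their doses differ, so each value below compares a pretreatment at its own dose and not the compounds at a matched dose.

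The wells of each stimulus were summed over the 8 times, which gave 12 libraries per pretreatment, each matched to the library of the same stimulus under the other inhibitor. Single wells held 41118 to 114906 UMI under dCA and 37542 to 127223 under BRD-6989. Summed libraries held 515816 to 666465 and 555562 to 732976. Each pretreatment was 1 plate with its own library index, so plate and inhibitor cannot be told apart. No label names separate cultures or animals, and p-values here measure only the spread between these libraries. Levels are given as CPM, the UMI count of a gene scaled to a fixed library total after TMM normalization, and differences as log2 of dCA over BRD-6989 with the standard error of the fit. Rn45s, the precursor of ribosomal RNA, took 49.8% ± 4.04 (SD, n = 12) of the UMI under dCA and 44.4% ± 3.55 (SD, n = 12) under BRD-6989, with the dCA library higher in 12 of 12 conditions. Macrophage identity genes summed to a median of 8578 CPM under dCA and 8714 under BRD-6989. Markers of B, T, NK, erythroid, mast, stromal, dendritic and neutrophil cells summed to at most 78.2 CPM per list in any dCA or BRD-6989 library. In such bulk samples, fewer cells of a type and less RNA per cell cannot be told apart.

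Over the 12 conditions, 198 of 5712 tested genes (3.47%) differed between the inhibitors in edgeR's quasi-likelihood test with Benjamini-Hochberg adjusted p under 0.05. Of these, 134 genes (2.35%) were higher under dCA and 64 (1.12%) were lower. At an unadjusted p under 0.05 there were 879 of the 5712, to be held against the unadjusted counts of the lists below. Genes of the interferon response and of the Ly6 family led the higher group, and genes of chromosome condensation and mitosis stood among the lower. Of the 134, 25 were in the interferon, MHC class I or Ly6 lists drawn up here, 13 were ribosomal and 78 were in no list. Of the 64, 8 were in the mitosis, cohesin or replication lists, 1 was ribosomal and 46 were in no list. Most differences were small: the median was 0.43 on the log2 scale among the 134 and -0.55 among the 64. A difference of at least 2-fold was found for 12 of the higher and 6 of the lower genes. The direction was shared by at least 10 of 12 conditions for 125 of the 134 genes and 55 of the 64. The median over all tested genes was -0.0051. Dividing by library totals without Rn45s moved the split to 89 higher and 85 lower. Taking single wells as units gave 59 higher and 218 lower, with the median of all genes at -0.14, and a stricter filter on low counts gave 116 and 108. With the Rn45s share as a covariate 93 genes were called, 50 of them among the 198. That share was higher under dCA in 12 of 12 conditions, so it overlaps with the inhibitor and this fit cannot separate them. Calls lost with the covariate, here and below, are therefore given as description, and their reason was not tested. Without the stimulus as a block 75 were called, with total reads in place of UMI 84, and with only the wells of 60 min and later 84.

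**Figure D1:**
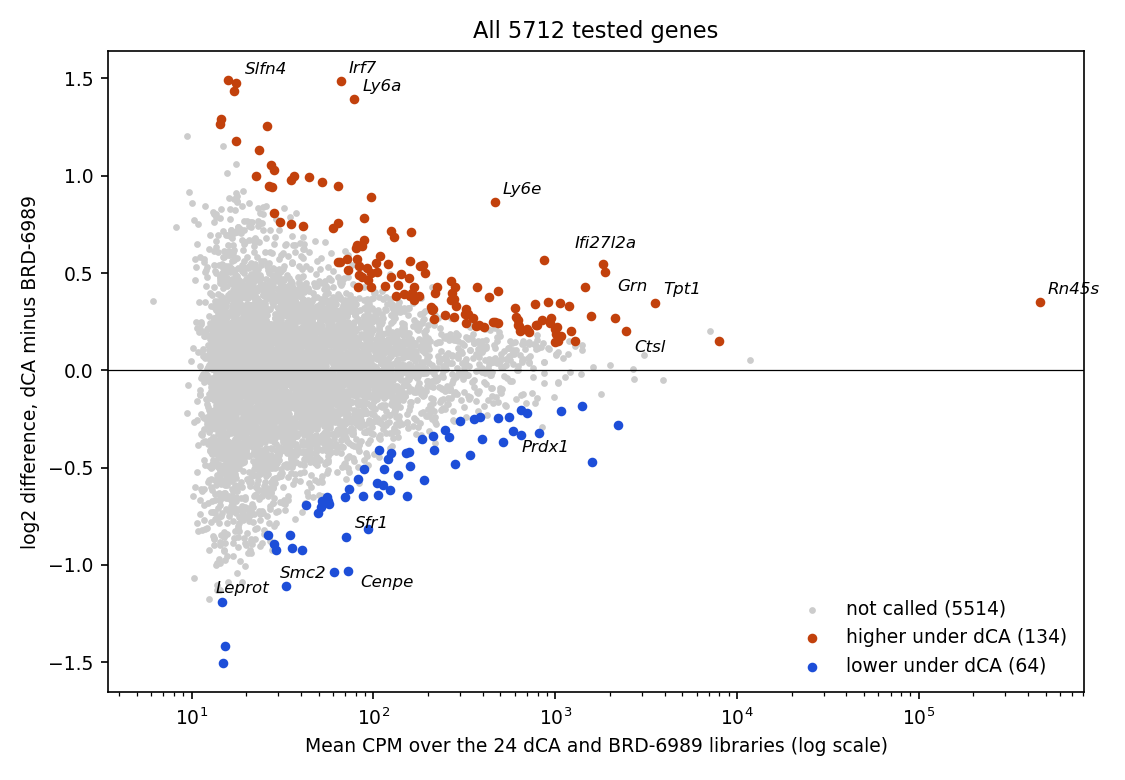
Difference between the inhibitors for each of the 5712 tested genes, as log2 of dCA over BRD-6989, plotted against the mean level over the 24 libraries on a log axis. Coloured points are the 134 genes called higher and the 64 called lower under dCA. Irf7 and Ly6a lie near the top and Smc2 near the bottom, and most genes lie close to 0.

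The largest differences towards dCA among genes of at least 20 CPM were those of Irf7 and Ly6a. Irf7, on chromosome 7 at 141263183 to 141266499 in build GRCm38.p6, encodes the transcription factor that drives the second wave of type I interferon genes. Its level ran from 62.4 to 136 CPM over the 12 dCA libraries with a median of 90.5, and from 12.7 to 80.1 with a median of 34.8 under BRD-6989. The dCA library was the higher in 12 of 12 conditions, although the ranges overlapped. The fitted log2 difference was 1.49 ± 0.17 (edgeR adjusted p = 3.23e-09), a 2.80-fold higher level that rested on 672 and 309 UMI. By condition it went from 0.16 with LPS to 2.39 with CpG. The median in DMSO was 117 CPM, so the BRD-6989 libraries held the lowest of the 3 medians. Against DMSO the fit gave Irf7 -0.35 ± 0.15 under dCA (edgeR adjusted p = 0.105) and -1.84 ± 0.16 under BRD-6989 (edgeR adjusted p = 1.61e-13).

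Ly6a, on chromosome 15 at 74994877 to 74998031, encodes Sca-1, a surface protein that interferon raises. It was measured at 68.3 to 182 CPM under dCA (median 104) and at 20.6 to 102 under BRD-6989 (median 39.1). Every dCA library exceeded its matched BRD-6989 library, from 0.54 with Zymosan to 2.45 without a stimulus. The fitted difference was 1.39 ± 0.15 (edgeR adjusted p = 3.11e-09), or 2.63-fold. The DMSO median of 73.2 CPM lay between those of the inhibitors: Ly6a differed from DMSO by 0.53 under dCA and by -0.86 under BRD-6989. Both contrasts passed the test and share their DMSO libraries.

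Ly6e, the neighbour of Ly6a on chromosome 15 at 74955025 to 74959904 and the gene of a membrane protein that restricts viruses, had the smallest adjusted p of all tested genes. Its lowest dCA library held 509 CPM and its highest BRD-6989 library 483, so the groups did not overlap. Medians were 593 under dCA, 316 under BRD-6989 and 470 in DMSO. The difference was 0.87 ± 0.06 (edgeR adjusted p = 5.37e-16), and between 0.60 with Poly(I:C) and 1.04 with Pam3cys across conditions. The ranges of 6 of the 198 called genes, or 0.105% of all tested genes, did not overlap between the inhibitors, 3 of them (0.0525%) higher and 3 (0.0525%) lower under dCA. Named after their values were seen, Ly6e, Grn and the pseudogene Oaz1-ps were on the higher side, and Smc2 and Sfr1 were on the lower side.

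**Figure D2:**
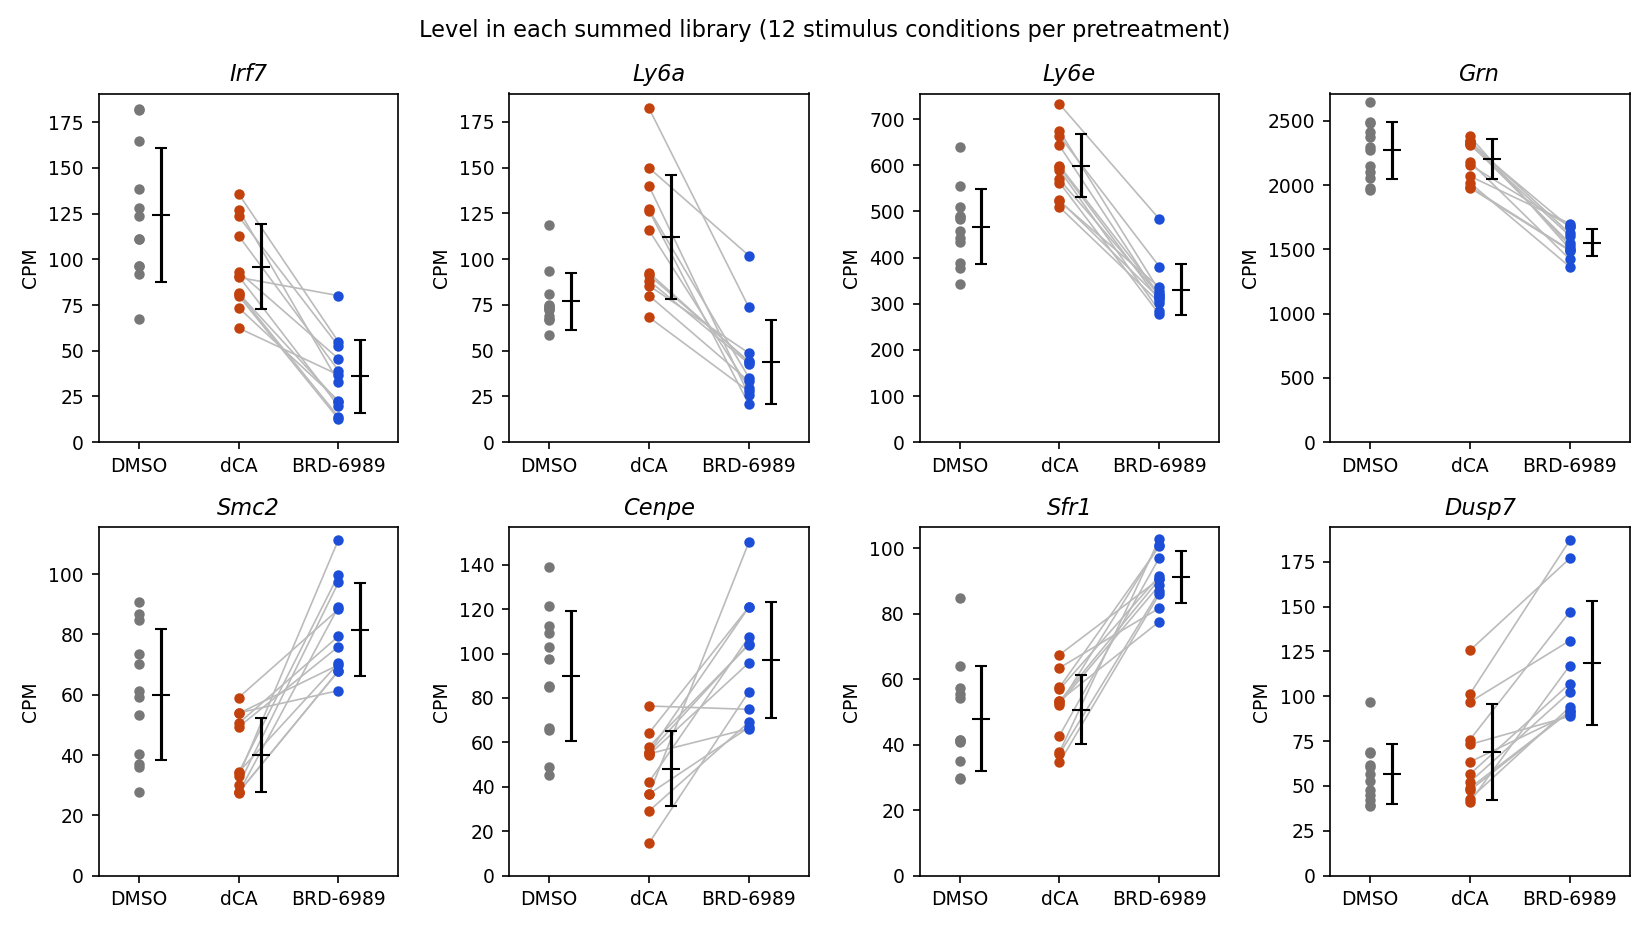
Levels of 8 genes in CPM in DMSO, dCA and BRD-6989, with 1 dot for each of the 12 stimulus libraries, grey lines joining libraries of the same stimulus, and black bars for the mean ± SD. Every grey line for Irf7, Ly6a, Ly6e and Grn goes down from dCA to BRD-6989, and every line for Smc2, Sfr1 and Dusp7 goes up.

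Interferon effector genes, whose products block viral entry, translation or assembly, were higher under dCA as a group. Of 54 tested members, 17 were called higher and 0 lower by edgeR, where 2.35% and 1.12% of all tested genes were. At an unadjusted p under 0.05 edgeR had 24 higher and 0 lower, and DESeq2 called 19 and 0. The list's median difference was 0.40 beside -0.0051 over all genes, and 47 of the 54 were above 0. Against DMSO the list's median was -0.39 under dCA and -0.80 under BRD-6989, beside -0.0073 and 0.0029 over all genes. In each of the 12 conditions taken alone the median of the list was above 0, between 0.18 and 0.65. With the Rn45s share as a covariate 7 members were called, with total reads 9 and without the block 9. The list was drawn up with earlier results of these data known, so its direction is described and not tested.

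Oas1a, which makes the 2-5A messenger that activates RNase L, ran from 66.6 to 203 CPM under dCA (median 107) and from 25 to 131 under BRD-6989 (median 70.9). It was higher in 12 of 12 conditions by 0.89 ± 0.13 (edgeR adjusted p = 4.01e-06). Oas1g, a close copy of Oas1a, differed by 0.79 ± 0.14, and reads of the pair could have been split by the counting. Oas3, of the same family, was called at 0.95 ± 0.27 but lost the call when any of 6 conditions was left out (edgeR adjusted p = 0.0986 without TDB). Here and below, a condition left out means its libraries of every pretreatment. With the covariate Oas3 was 0.91 higher and did not pass (edgeR adjusted p = 0.372). Ifi27l2a, a small interferon-induced mitochondrial protein gene, was much more abundant. It held 1859 to 2993 CPM under dCA and 1192 to 2014 under BRD-6989, and its difference of 0.55 ± 0.04 had the same sign in 12 of 12 conditions. Lgals3bp, a secreted glycoprotein gene, was higher by 0.71 ± 0.10, also in 12 of 12.

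Weaker transcripts went the same way with wider errors. Ifit3, whose product binds viral RNA together with Ifit1, was 1.14 ± 0.25 higher, with a median of 28.2 CPM under dCA, 9.68 under BRD-6989 and 86.4 in DMSO. Both inhibitors lay below DMSO for Ifit3, by -1.47 under dCA and by -2.60 under BRD-6989. Ifi44 was 1.05 ± 0.25 higher, Epsti1 1.03 ± 0.24, Oasl1 0.97 ± 0.20 and Siglec1, the sialic acid receptor of activated macrophages, 0.94 ± 0.24. All 5 were called. Ifit3 kept its call with the Rn45s share as a covariate, at 1.34 (edgeR adjusted p = 0.0469), but not with total reads (edgeR adjusted p = 0.137) or without the block (edgeR adjusted p = 0.247). Ifi44 at 1.13, Epsti1 at 0.65, Oasl1 at 0.85 and Siglec1 at 0.14 did not pass with the covariate (edgeR adjusted p = 0.156, 0.507, 0.18 and 0.92). Ifit1 missed the threshold at 0.43, with a 95% interval of 0.17 to 0.69 (edgeR adjusted p = 0.0501). It passed in 11 of 27 alternative settings, among them DESeq2 (adjusted p = 0.0219) and the Rn45s covariate, at 0.74 (edgeR adjusted p = 0.0249). Ftsjd2, which RefSeq calls Cmtr1 and which methylates the mRNA cap, had a median of 83.7 CPM under dCA against 42.8 under BRD-6989, a difference of 0.95 ± 0.18. With the covariate Ftsjd2 was 0.22 higher and did not pass (edgeR adjusted p = 0.826). Outside the interferon lists, the deubiquitinase gene Otud5 was higher by 1.25 ± 0.25 and the calcium channel gene Orai1 by 0.98 ± 0.21, and neither passed with the covariate, at 1.30 and 1.10 (edgeR adjusted p = 0.0903 and 0.125).

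Promoters of called interferon genes were searched for the core of the interferon-stimulated response element, spelled GAAA, any 2 bases, GAAA, on either strand, in the 300 bases that RefSeq places around each gene start in build GRCm38.p6. The core was found in 173 of the 4590 tested genes with a listed promoter (3.77%). Stretches from 4 of the higher genes are printed to show where it lies, with the match in capitals; a match that reads TTTC, any 2 bases, TTTC is the same core on the other strand. They are Ifit3 at chr19:34583343-34583446 on the plus strand, Oas3 at chr5:120777695-120777764 on the minus strand, Oas1a at chr5:120907526-120907575 on the minus strand and Gbp7 at chr3:142530253-142530322 on the plus strand.
Ifit3: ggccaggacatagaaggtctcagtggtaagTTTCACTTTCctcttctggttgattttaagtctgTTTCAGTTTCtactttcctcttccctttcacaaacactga
Oas3: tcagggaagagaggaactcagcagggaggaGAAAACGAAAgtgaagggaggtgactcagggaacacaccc
Oas1a: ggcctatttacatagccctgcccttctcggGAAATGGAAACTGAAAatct
Gbp7: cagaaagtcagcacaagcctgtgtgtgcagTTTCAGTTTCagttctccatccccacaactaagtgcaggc
Ifit3 holds 2 separate cores and Oas1a 2 that overlap. The printed genes were picked because they hold the core. Of other called higher genes, Oas1g and B2m hold it too, whereas the searched promoters of Irf7 and Ifi44 do not. Among genes lower under dCA, Smc2 and Ctss hold the core too, and so does Cxcl10, which was not called. Only 97 of the 134 higher and 51 of the 64 lower genes had a listed promoter, under 80% in both, so a comparison of shares is void.

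Guanylate-binding and related interferon GTPases, which coat and break the vacuoles of intracellular microbes, had a median difference of 0.42. Of 14 tested, 13 were above 0 and 2 were called higher, where 2.35% of all tested genes were. Against DMSO the GTPase list had a median of -0.43 under dCA and -1.09 under BRD-6989. Gbp7 had a median of 52.8 CPM under dCA and 24.0 under BRD-6989, a difference of 0.99 ± 0.24 (edgeR adjusted p = 0.0102). Gvin1 was higher by 0.43 ± 0.10. Neither passed with the Rn45s share as a covariate, Gbp7 at 1.09 (edgeR adjusted p = 0.175) and Gvin1 at 0.23 (edgeR adjusted p = 0.616), and the list's median was 0.16. Of 14 genes of MHC class I presentation and the immunoproteasome, all 14 were above 0, with a median of 0.23. Among them 3 were called higher, beside 2.35% of all tested genes. For these 14 genes the median against DMSO was -0.36 under dCA and -0.64 under BRD-6989. B2m, the light chain of every class I molecule, held 886 to 1321 CPM under dCA and 730 to 1211 under BRD-6989, and was higher in 12 of 12 conditions by 0.22 ± 0.05. Tapbp, the tapasin that loads peptide, differed by 0.50 ± 0.13, and the class I heavy chain H2-K1 by 0.24 ± 0.07. H2-K1 lost its call when any of 8 conditions was left out and Tapbp when any of 3 was. With the covariate H2-K1 was 0.40 higher and kept its call, whereas Tapbp at 0.47 did not pass (edgeR adjusted p = 0.343). No member of this list passed without the block or with the wells of 60 min and later alone.

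Of 19 tested genes of interferon sensing and signalling, Irf7 alone was called, beside 3.47% of all tested genes, and the list's median was 0.16. Among 15 nucleic acid sensors edgeR called 0 and DESeq2 called 0. At an unadjusted p under 0.05 edgeR had 3 higher and 0 lower, beside 879 of all 5712 tested genes. Cxcl10, a chemokine gene that both NF-kB and interferon switch on, differed by 0.10 (95% interval -0.10 to 0.30, edgeR adjusted p = 0.706). It lay below DMSO under both inhibitors, by a log2 difference of -1 under dCA and of -1.10 under BRD-6989.

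**Figure D3:**
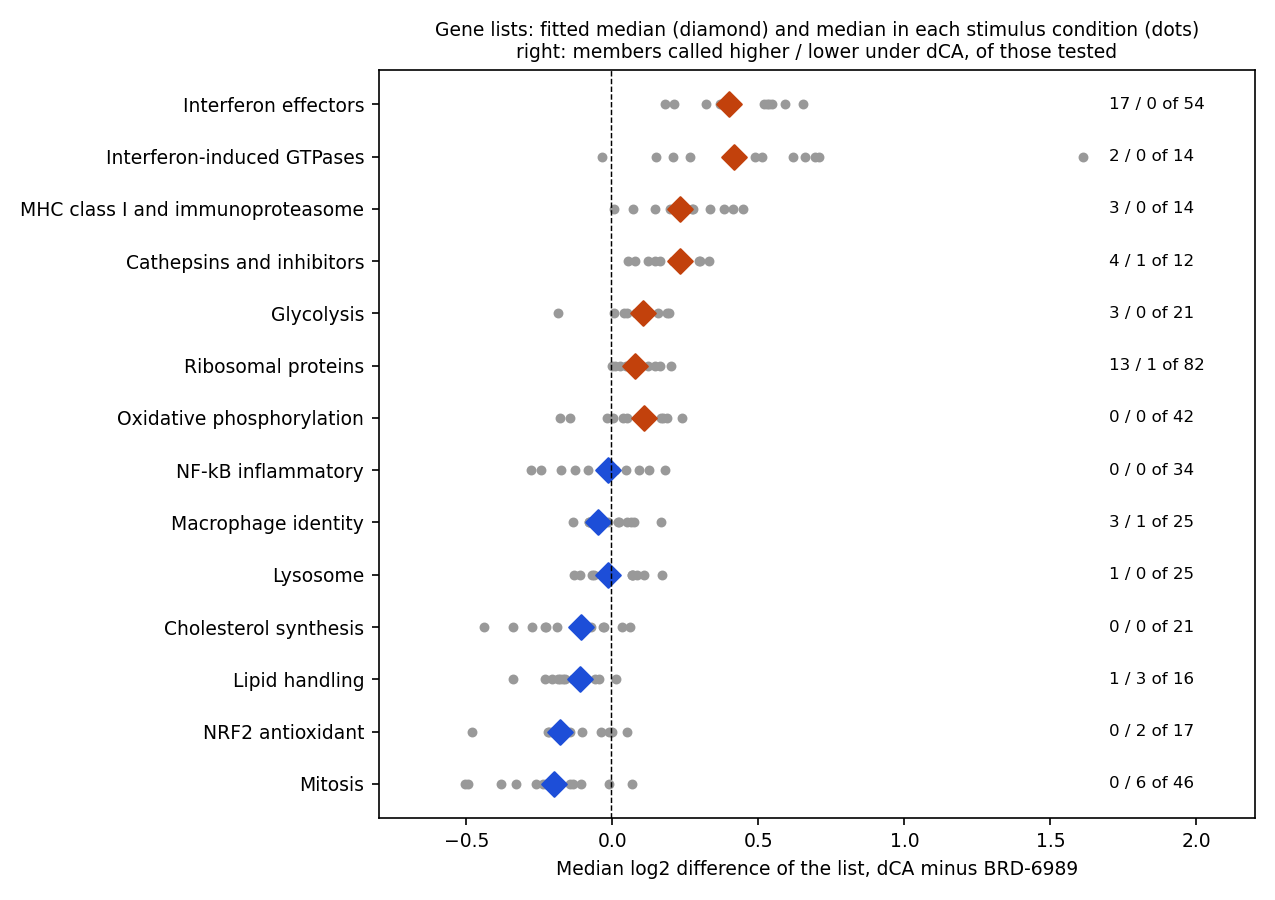
Differences between the inhibitors for 14 gene lists, as log2 of dCA over BRD-6989. The diamond is the median of the fitted differences of the tested members, each dot is the median in 1 of the 12 conditions, and the dashed line is the median of all tested genes. Numbers at the right give members called higher and lower of those tested. All 12 dots of the interferon effectors lie to the right of the line, and 11 of the 12 mitosis dots lie to the left of 0.

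Genes of mitosis went the other way. Of 46 tested, 6 were lower under dCA and none was higher, where 1.12% and 2.35% of all tested genes were. The list had a median of -0.20, and 32 of the 46 were below 0. At an unadjusted p under 0.05 edgeR had 8 lower and 0 higher, beside 879 of all 5712 tested genes. For the mitosis list DESeq2 called 7 lower and 0 higher. With the Rn45s share as a covariate 3 were called lower, and without the block 3. The list's median was below 0 in 11 of 12 conditions. Smc2, on chromosome 4 at 52439221 to 52488365, is a core subunit of condensin, the ring that compacts chromosomes. It ran from 27.4 to 59.1 CPM under dCA (median 34.2) and from 61.4 to 111 under BRD-6989 (median 77.7), so no dCA library reached any BRD-6989 library. The difference was -1.04 ± 0.17 (edgeR adjusted p = 5.99e-05), which is 2.05-fold more under BRD-6989, from 276 and 692 UMI. DMSO had a median of 60.4, between both, and Smc2 differed from it by -0.56 under dCA and by 0.47 under BRD-6989. With the Rn45s share as a covariate the Smc2 difference was -0.66 and did not pass (edgeR adjusted p = 0.293).

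Cenpe, the kinesin that carries chromosomes to the spindle equator, held 14.7 to 76.4 CPM under dCA (median 54.7) and 66.2 to 150 under BRD-6989 (median 99.9). It was lower under dCA in 11 of 12 conditions by -1.03 ± 0.17 (edgeR adjusted p = 4.27e-05). Its DMSO median of 91.5 lay close to that of BRD-6989, and only the dCA contrast passed against DMSO, at -0.90 beside 0.13. Top2a, the topoisomerase that untangles sister chromatids, was lower by -0.64 ± 0.14, and Mki67, the proliferation marker Ki-67, by -0.48 ± 0.10. Hmgb2, a chromatin protein, was lower by -0.46 ± 0.11, and Smc4, the partner of Smc2 in condensin, by -0.41 ± 0.11. Of 12 cohesin and related genes 1 was called, beside 3.47% of all tested genes. It was Pds5b, at -1.51 ± 0.40 from medians of 6.77 and 21.4 CPM. The Pds5b call was lost when any of 3 conditions was left out (edgeR adjusted p = 0.0644 without SeV) and with the covariate, at -1.11 (edgeR adjusted p = 0.545). Among 23 genes of DNA replication 1 was called, beside 3.47% of all tested genes: Rfc1, the large subunit of the clamp loader, at -0.70 ± 0.20. It failed when any of 6 conditions was left out (edgeR adjusted p = 0.0906 without CpG) and with the covariate, at -0.70 (edgeR adjusted p = 0.372).

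Other genes lower under dCA did not fall into a list drawn up here, as was the case for 46 of the 64. Sfr1, a recombination mediator partner, ranged from 34.6 to 67.4 CPM under dCA and from 77.6 to 103 under BRD-6989, without overlap. The Sfr1 difference was -0.85 ± 0.16 (edgeR adjusted p = 0.000243). It was -0.61 with the Rn45s share in the fit and did not pass (edgeR adjusted p = 0.315). Its DMSO median was 41.5 CPM, so BRD-6989 stood apart from both others. Dusp7, a phosphatase that switches off ERK, was lower in 12 of 12 conditions by -0.81 ± 0.14 (edgeR adjusted p = 7.46e-05). It held 41.1 to 126 CPM under dCA, 88.8 to 187 under BRD-6989 and a median of 54.8 in DMSO. Leprot, Nfatc3, Arhgap6, Abcg1, Uba6, Spcs3 and Usp16 completed the 12 named lower genes, with differences from -1.11 to -0.69. Among them Abcg1 does belong to a list, that of the lipid genes below. Leprot was called in every fit that left out 1 condition. Nfatc3, Arhgap6, Abcg1, Uba6 and Usp16 each failed in 6 to 9 of the 12 such fits and Spcs3 in 1. None of these 7 passed with the Rn45s share in the fit, at -1.37 for Nfatc3 to -0.23 for Abcg1 (edgeR adjusted p = 0.0674 to 0.891).

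Of 82 ribosomal protein genes tested, 13 were higher under dCA and 1 was lower, where 2.35% and 1.12% of all tested genes were. The list's median was 0.08, 62 of the 82 were above 0, and that median was above 0 in 11 of 12 conditions. With the Rn45s share as a covariate 17 were called higher and 1 lower, with a median of 0.19, and without the block 7 and 1. Rpsa held 1003 to 1910 CPM under dCA and 756 to 1241 under BRD-6989 and was higher by 0.35 ± 0.05 (edgeR adjusted p = 1.54e-06). Rpl41 was higher by 0.28 ± 0.04, Rps15 by 0.41 ± 0.06 and Rpl36 by 0.43 ± 0.07, each in 12 of 12 conditions. These genes have many processed pseudogenes, and how the counting shared reads among near-identical copies is uncertain. With single wells as units the list gave 6 higher and 7 lower and a median of -0.02. The stricter filter on low counts gave 13 higher and 6 lower of 81, beside 116 and 108 of all 1182 genes tested there. Tpt1, another abundant growth-linked transcript, was higher by 0.35 ± 0.04 in 12 of 12 conditions but was 0.07 higher and did not pass with the Rn45s share as a covariate (edgeR adjusted p = 0.647).

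Of 25 lysosome genes tested, 1 was higher under dCA and none was lower, where 2.35% and 1.12% of all tested genes were. The lysosome list's median was -0.01, and it was above 0 in 7 conditions and below 0 in 5. The called member was Grn, the progranulin gene, which ran from 1980 to 2379 CPM under dCA and from 1365 to 1701 under BRD-6989, with no overlap. The difference was 0.50 ± 0.04 (edgeR adjusted p = 1.12e-13), and the DMSO median of 2285 was close to that of dCA, 2249. Of 12 cathepsins and cystatins, 4 were higher and 1 lower, where 2.35% and 1.12% of all tested genes were. The list's median was 0.23 and was above 0 in each of the 12 conditions. Ctsd was higher by 0.27 ± 0.04, the cathepsin inhibitor Cst3 by 0.35 ± 0.05, Ctsl by 0.20 ± 0.04 and Ctsa by 0.29 ± 0.07. Ctsa was 0.35 higher with the Rn45s share in the fit and did not pass (edgeR adjusted p = 0.0737). Ctss, the protease that trims the invariant chain, was the lower one at -0.25 ± 0.08. It lost the call in 9 of 12 fits without 1 condition and with the covariate, at -0.16 (edgeR adjusted p = 0.674). Ctsl was high under both inhibitors, with medians of 2623 and 2218 CPM against 383 in DMSO. The difference between the inhibitors was thus small beside their shared distance from the control, 2.73 under dCA and 2.53 under BRD-6989. Without the block, 1 member of the list was called higher.

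Macrophage identity genes were mixed, with 3 of 25 higher and 1 lower, where 2.35% and 1.12% of all tested genes were. The list's median was -0.05. The complement genes C1qb and C1qa were higher by 0.26 ± 0.05 and 0.33 ± 0.08, and Csf1r, the receptor for M-CSF, by 0.23 ± 0.06. Lyz2, the lysozyme gene, held 494 to 845 CPM under dCA and 597 to 1063 under BRD-6989, and was lower in 12 of 12 conditions by -0.33 ± 0.05. With the covariate Lyz2 at -0.26, C1qa at 0.24 and Csf1r at 0.20 did not pass (edgeR adjusted p = 0.0924, 0.489 and 0.402). Of 21 glycolysis genes 3 were higher, beside 2.35% of all tested genes. These were Pkm, Gpi1 and Aldoa, by 0.18, 0.31 and 0.25. Their differences with the Rn45s share in the fit were 0.17, 0.32 and 0.05, and none of the 3 passed (edgeR adjusted p = 0.246, 0.242 and 0.898). Of 17 antioxidant genes 2 were lower, beside 1.12% of all tested genes. They were Nfe2l2, which encodes the factor NRF2, by -0.56 ± 0.10, and its target Prdx1, a peroxiredoxin gene, by -0.31 ± 0.06. Prdx1 held 423 to 610 CPM under dCA and 545 to 767 under BRD-6989, and both inhibitors lay above DMSO, by 0.33 and 0.64. With the covariate neither passed, Nfe2l2 at -0.37 (edgeR adjusted p = 0.354) and Prdx1 at -0.17 (edgeR adjusted p = 0.461).

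The core of the antioxidant response element, to which NRF2 binds, was searched as TGACNNNGC on either strand after the values had been seen, and 731 of the 4590 promoters (15.9%) hold it. The Prdx1 stretch, at chr4:116685436-116685504 on the plus strand in GRCm38.p6, is printed with the match, which lies on the other strand, in capitals.
Prdx1: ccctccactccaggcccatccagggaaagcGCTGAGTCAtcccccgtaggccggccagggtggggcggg
Nfe2l2 holds 1 match too, as do Irf7 and Smc2, on opposite sides of the comparison.

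Lipid genes gave 3 lower and 1 higher of 16 handled by LXR and related factors, where 1.12% and 2.35% of all tested genes were. Abcg1, a cholesterol exporter, was lower by -0.89 ± 0.27, Cd36, a scavenger receptor, by -0.24 ± 0.07 and Lpl, lipoprotein lipase, by -0.18 ± 0.05, while Npc2, a lysosomal cholesterol carrier, was higher by 0.22 ± 0.06. Each lost its call when certain single conditions were left out: Abcg1 in 9 of 12 fits, Cd36 in 8, Npc2 in 8 and Lpl in 3. None of the 4 passed with the covariate, Abcg1 at -0.23, Cd36 at -0.29, Lpl at -0.11 and Npc2 at 0.28 (edgeR adjusted p = 0.891, 0.284, 0.644 and 0.187). Cd36 and Lpl were above DMSO under both inhibitors, at 1.23 and 1.47 for Cd36 and at 0.71 and 0.90 for Lpl. Of 21 cholesterol synthesis genes edgeR called 0, with 0 higher and 4 lower at an unadjusted p under 0.05, and DESeq2 called 1 lower.

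For 34 NF-kB and inflammatory genes the median was -0.02. EdgeR called 0 of them, with 2 higher and 6 lower at an unadjusted p under 0.05, and DESeq2 called 1 lower. Tnf, the cytokine that macrophages release early, ran from 38.7 to 437 CPM under dCA and from 13.5 to 444 under BRD-6989, and differed by 0.11 (95% interval -0.15 to 0.36). Il1b differed by -0.38 (95% interval -0.74 to -0.02, edgeR adjusted p = 0.28) and was the lower under dCA in 10 of 12 conditions. Of 42 nuclear genes of oxidative phosphorylation edgeR called 0, and DESeq2 called 2 higher and 1 lower. At an unadjusted p under 0.05 edgeR had 5 higher and 2 lower, beside 879 of all 5712 tested genes.

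Mediator itself was thinly measured. Cdk8 had 111 UMI in all dCA wells and 114 in all BRD-6989 wells, Cdk19 67 and 65, and Ccnc 66 and 121, and none of the 3 reached the filter on low counts. Med12 differed by 0.43 (95% interval -0.10 to 0.96) and Med13 by -0.16 (95% interval -0.76 to 0.45). Of 12 core Mediator subunits edgeR called 0, with 1 higher and 1 lower at an unadjusted p under 0.05, and DESeq2 called 0. Several genes far above DMSO under both inhibitors did not pass between them. Nptx1, a pentraxin gene, stood 3.63 above DMSO under dCA and 3.50 under BRD-6989, and the direct difference was 0.12 (95% interval -0.21 to 0.46). Slc5a3, the inositol transporter, differed by -0.04 (95% interval -0.46 to 0.38) and Tfrc, the transferrin receptor, by -0.19 (95% interval -0.56 to 0.18). Ctla2a, an inhibitor of cathepsin L, was higher under dCA in 12 of 12 conditions by 0.50 (95% interval 0.18 to 0.81) but missed the threshold (edgeR adjusted p = 0.0627). Ctla2a passed in 5 of 27 alternative settings, among them the fit without the SeV libraries (edgeR adjusted p = 0.0461). Ccr3, a chemokine receptor gene, was higher in 11 of 12 by 0.59 (95% interval 0.16 to 1.02, edgeR adjusted p = 0.135). Both contrasts with DMSO share their control libraries, so their calls are only set side by side. Of the 134 higher genes, 42 were called higher and 25 lower in dCA against DMSO, and 14 higher and 82 lower in BRD-6989 against DMSO. Of the 64 lower genes, 9 were higher and 21 lower in dCA, and 30 higher and 1 lower in BRD-6989. Over all tested genes, 18% were called in dCA against DMSO (9.93% higher and 8.04% lower) and 20.9% in BRD-6989 against DMSO (10.4% higher and 10.5% lower).

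Without a stimulus, 2 of 5835 tested genes (0.0343%) differed over the 8 pairs of wells of matching time: Tpt1 and Ly6e. At an unadjusted p under 0.05 there were 275, and DESeq2 called 9. Tpt1 ran from 2790 to 6193 CPM over the 8 dCA wells (median 4088) and from 1668 to 6831 under BRD-6989 (median 2690). It was higher under dCA at 7 of 8 times by 0.53 ± 0.09 (edgeR adjusted p = 8.57e-06), and without time as a block it did not pass (edgeR adjusted p = 0.999). Ly6e ran from 306 to 822 CPM (median 631) and from 195 to 434 (median 324), with 7 of 8 times higher by 0.96 ± 0.22 (edgeR adjusted p = 0.0316). The Ly6e call was lost when the 15, 30, 45, 60, 120 or 150 min wells were left out, up to an edgeR adjusted p of 0.328 without 120 min.

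Whether the difference depended on the kind of stimulus was tested next. With LPS, MDP_LPS, Poly(I:C) and SeV taken as 4 interferon-inducing conditions against the other 8, edgeR called 0 of 5712 genes for a difference of differences. At an unadjusted p under 0.05 there were 184, and DESeq2 called 0. For Irf7 the dCA to BRD-6989 difference was 1.23 ± 0.27 in the 4 and 1.66 ± 0.21 in the 8, and their difference did not pass (edgeR adjusted p = 0.999). Ikzf1, a lymphoid and myeloid transcription factor gene with one of the smallest p values, had a difference of differences of 2.19 ± 0.60 (edgeR adjusted p = 0.999).

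Time after the stimulus was treated in the same way, with 15 to 60 min against 90 to 180 min. EdgeR called 0 genes, with 148 at an unadjusted p under 0.05, and DESeq2 called 0. Irf7 was 1.68 higher under dCA early and 1.45 late, and at the 8 single times the difference lay between 1.02 and 2.09. Ly6a lay between 0.89 and 1.83, and both were the higher under dCA at 8 of 8 times. Smc2 was -0.61 early and -1.51 late, which as a difference of differences did not pass (edgeR adjusted p = 0.997). At 60 min Smc2 was level, at 66.6 and 64 CPM, and at 180 min it was 26.2 and 87.8. The smallest p values belonged to Kpnb1, an importin gene, and U2af1, a splicing factor gene (edgeR adjusted p = 0.997 for both).

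**Figure D4:**
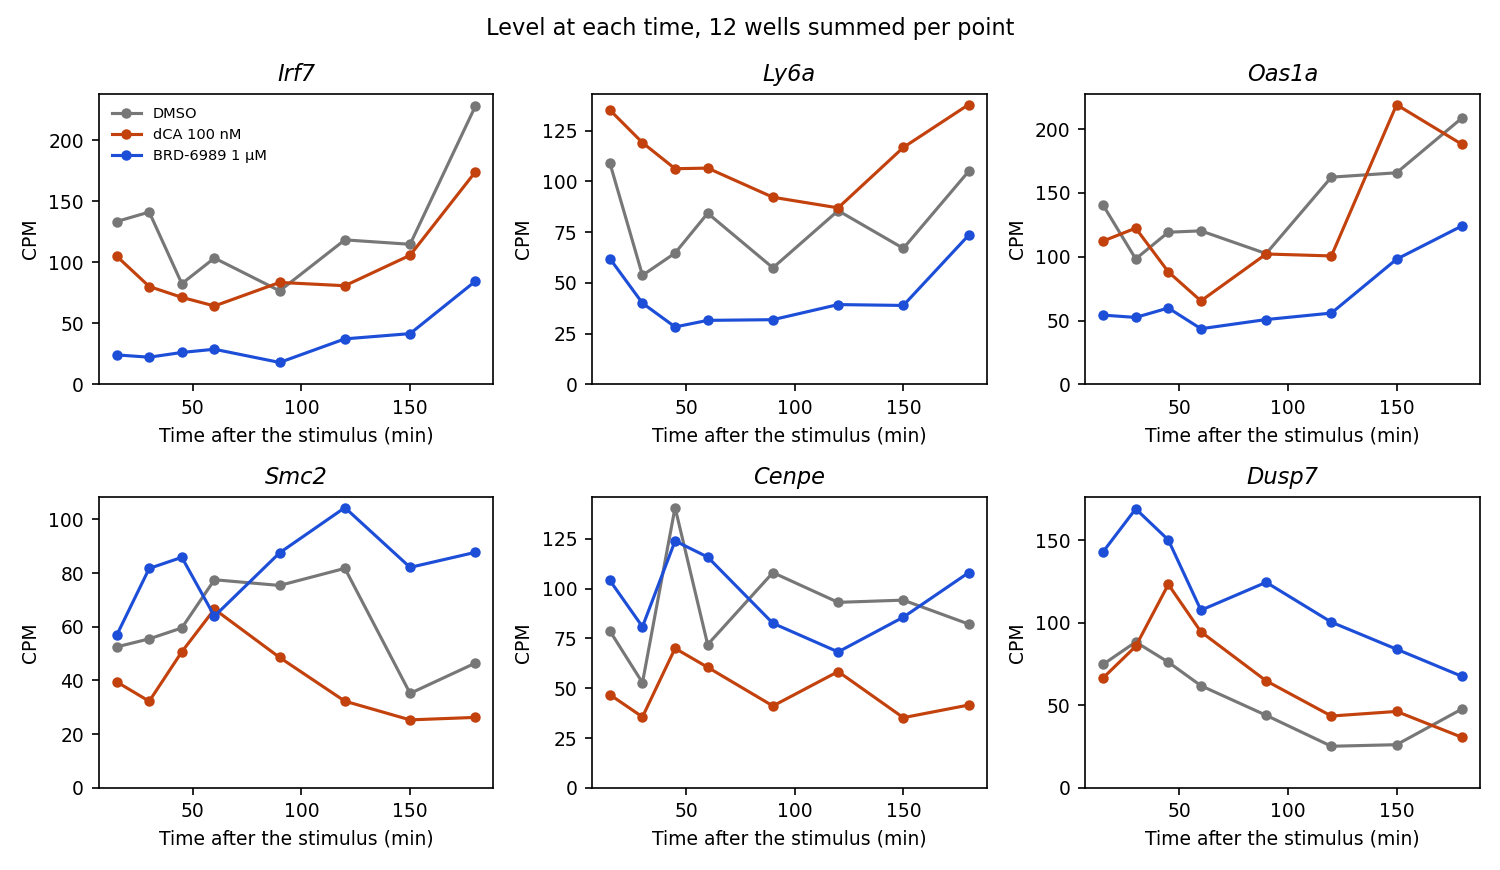
Levels of Irf7, Ly6a, Oas1a, Smc2, Cenpe and Dusp7 in CPM against minutes after the stimulus, by pretreatment. Each point is the sum of 12 wells, 1 per stimulus condition, so no error bar is drawn. The dCA line lies above the BRD-6989 line at all 8 times for Irf7, Ly6a and Oas1a, and below it at all 8 for Cenpe and Dusp7.

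Across the 12 conditions, the pattern of the Irf7 difference was most like that of Sash1 (Pearson r = 0.76), Rpl7 (r = 0.75), Larp7, Arl8a and Ptpra among 1962 genes of at least 50 CPM. Among the 5 genes most like Smc2 were Cyth4 (r = 0.81), Cadm1, Rps28 and Pgk1. These are descriptions over 12 points from shared plates, and with so many genes ranked such values carry no test.

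The reporters are short promoters, mostly named for a transcription factor, with a barcode in the transcript. They gave 2 calls of 58 (3.45%), 1 lower (1.72%) and 1 higher (1.72%) under dCA. NRF2_4 was lower under dCA in 12 of 12 conditions by -0.19 ± 0.04 (edgeR adjusted p = 5.7e-06). Its median was 18262 reporter CPM under dCA and 21050 under BRD-6989, and it lay above DMSO by 0.22 under dCA and 0.41 under BRD-6989. The libraries of the inhibitors overlapped, and NRF2_4 did not pass without the stimulus as a block (edgeR adjusted p = 0.83). IRF3_10 at 0.10, GATA3_39 at -0.09, RORg_7 at -0.11 and IRF1_55 at 0.11 came next and did not pass (edgeR adjusted p = 0.0817 to 0.128). Without the Poly(I:C) libraries 5 reporters passed, IRF3_10, GATA3_39 and RORg_7 among them, and 3 passed without LPS and 3 without Pam3cys. Reporter totals were low, at 1011 to 8354 counts per well under dCA and 837 to 7899 under BRD-6989.

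**Figure D5:**
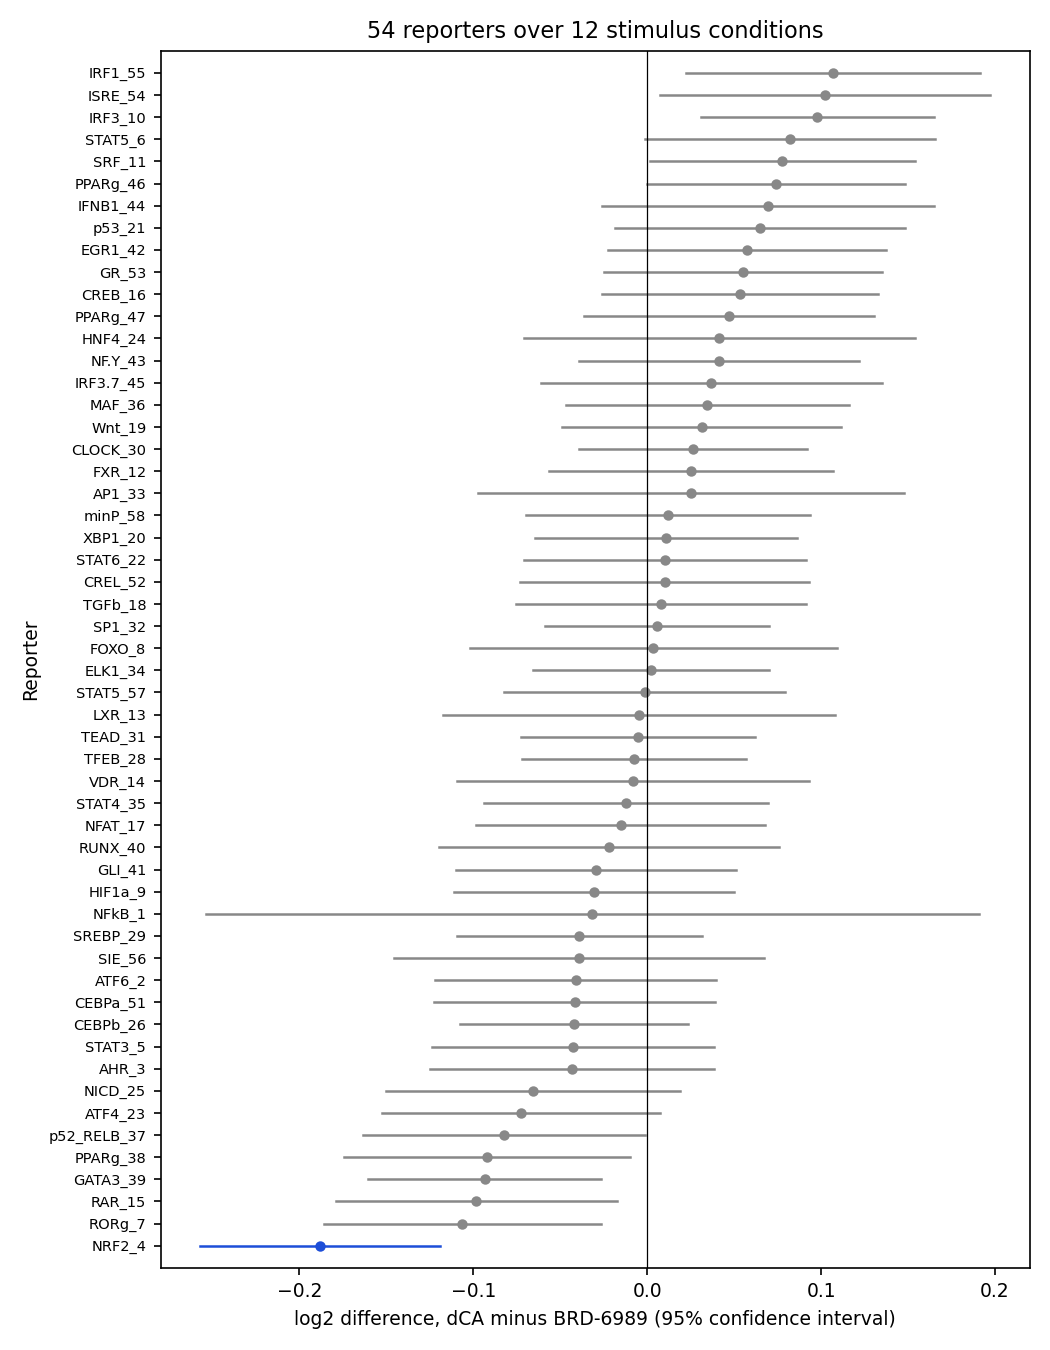
Difference between the inhibitors for 54 of the 58 reporters, as log2 of dCA over BRD-6989 with the 95% interval of the fit. NRF2_4 at the low end is the 1 drawn reporter that passed, and those not called lie between -0.11 and 0.11.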

How the data were processed

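The authors deposited 3′ digital gene expression as UMI counts per gene and well (with total read counts as an alternative), and reporter counts per well; the table of reporters named as normalized held the same numbers as the counts. Reads were processed with BWA, edgeR and build mm10, per the submitters' processing notes; for strand and multiply mapped reads the handling is not given in the sources used here. Of 23481 genes, 8773 had no UMI. Rn45s held 49.15% of all UMI and stayed in the library totals and the test. Wells were summed per stimulus into 36 libraries (12 per pretreatment, DMSO included so that all share 1 estimate of spread). Genes passing filterByExpr (minimum count 10) were fitted in edgeR 4.0.16 (R 4.3.3, limma 3.58.1) with TMM factors, robust quasi-likelihood, stimulus as block, and Benjamini-Hochberg adjustment at 0.05 over all tested genes. DESeq2 1.42.0 was an alternative. The fit was also run on simulated counts with no stimulus or plate effect built in, so that run cannot speak to either. The unstimulated fit used single wells with time as block and kept genes averaging 1 UMI or more in a well.

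Libraries of the same stimulus were paired because position and well tag matched across plates in 96 of 96 wells: their deviations correlated at 0.26 to 0.74 for each stimulus (median 0.51 over 911 genes) against -0.07 for unmatched ones, and 8 of 12 matched their own stimulus best. Genes were named by rule: the 12 largest differences each way with at least 20 CPM and 10 of 12 conditions in 1 direction, the markers Irf7, Ly6a and Smc2, up to 4 called members per list and direction, the smallest p of the other fits, and a fixed set. Genes with provisional names were passed over. The members, lists and rules were chosen with earlier results of these data known. Single-well counts limit precision, and intervals cover the spread between libraries. Promoter sequences are from RefSeq, GRCm38.p6. A few genes and reporters that the rule would name are not reported here; the counts include them.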

Additional observations from a re-analysis of the deposited data

Results flagged for a closer look

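Tpt1 in the unstimulated wells had a single high well in 2 groups. The highest DMSO well held 6114 CPM where the group's median was 2720, and the highest BRD-6989 well held 6831 CPM where the median was 2690. Both were the 60 min wells, and the gap to the next well took most of the group's range (Dixon's test for 8 wells). The 60 min well was also the highest under dCA, at 6193 CPM, without standing apart from the others. Without the 60 min wells the dCA to BRD-6989 difference was 0.61 (edgeR adjusted p = 1.62e-06). Chance flags about 1 in 20 groups, and 6 groups were checked. None of 85 named genes had differences of opposite sign in every condition of the 2 stimulus classes.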

How the results depend on the processing

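Of 68 named genes that were called, 16 kept the call under every alternative in which they were tested, and none changed direction. Rn45s is among the 16, although its alternatives include the fit with its own share as a covariate, which cannot test it. Of all 198 called genes, 194 kept their direction with the Rn45s share as a covariate. For the 12 conditions, 198 calls became 84 with total read counts, 84 with wells of 60 min and later, 93 with the Rn45s share as a covariate and 75 with no replicate block, and ranged from 138 to 174 with 1 stimulus left out. Other settings stayed within 1.5 times: 193 (RLE), 162 (upper quartile), 174 (totals without Rn45s), 189 (Rn45s removed), 266 (DESeq2), 156 (no filter), 224 (stricter filter), 222 (24 libraries), 277 (single wells), 193 (sums per time) and, added after seeing the data, 187 (not robust). Without a stimulus, 2 calls became 1 with total reads, 9 with DESeq2, 0 with no replicate block (pairing by time), and 1 to 2 with 1 time left out. Reporter calls became 5 with single wells, 0 with no replicate block, and 2 to 5 with 1 stimulus left out. Some named genes that were not called changed sign: Kpnb1 (0.31 from 60 min, -0.145 to 0.0402 with 1 stimulus left out), U2af1 (0.012 with reads, -0.103 to 0.112), Slc5a3 (0.19 with reads, -0.124 to 0.00658), Med12 (-0.16) and Nptx1 (-0.32) with the covariate, and Cxcl10 (-0.057 with no replicate block). The cause of each change was not tested.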
